A study of Mus musculus with 102 samples.

Results

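The brains of 14-month-old mice were compared with those of 5- and 8-month-old mice, pooled as 1 younger adult group. All animals were male wild-type mice of the BL6J strain, as labelled, and no treatment or allele separates the groups. The 14-month group holds 9 brain samples and the 5- and 8-month group holds 15, with 8 at 5 months and 7 at 8 months. These 24 samples come from 26 of the 45 brain libraries and from 102 libraries in the whole series, which also covers brains at 3, 20 and 26 months and spleens of the ageing mice. In each of 2 cases a pair of libraries of 1 age differed by less than sampling noise (a variance ratio of 0.562 at 5 months and 0.623 at 8 months, against 1.41 or more for the other pairs of 325 compared). The libraries of such a pair carry different animal codes in their titles, so the labels do not account for their likeness. The mean of such a pair entered as a single sample. The samples were chosen by their labelled age and tissue alone, and a gene was tested where its value was 10 or more in at least 5 brain samples, which left 15546 genes of 51810 listed. Each title carries its own animal code. The labels give brain with no region, so the values average over all dissected cells, and fewer cells of a type cannot be told apart from less RNA per cell.

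In the ageing mouse brain, microglia and astrocytes turn up complement, antigen presentation and interferon-stimulated genes, a response best known from old animals. Complement component C4 tags surfaces for clearance, class I and class II MHC molecules present peptides to T cells, and interferon-stimulated genes restrain viruses once cells sense interferon. Middle age lies between maturity and that state, and the comparison asks how much of the transcriptome already differs at 14 months.

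Expression was read as the normalized read count, the reads of a gene divided by 1 size factor for its library. Means are given ± SD over the 9 samples of 14 months and the 15 samples of 5 and 8 months, and a log2 difference is the mean of log2(value + 1) at 14 months minus that at 5 and 8 months. The 9 libraries of 14 months held 4072076 to 11599769 reads in genes, and the 17 libraries of 5 and 8 months held 4693546 to 11223606. Brain identity was checked by summed marker levels: the 14 pan-neuronal genes summed to 73739 to 89047 at 14 months and 74772 to 96059 at 5 and 8 months, and the 19 astrocyte genes to 49746 to 58931 at 14 months and 51656 to 60895 at 5 and 8 months. Some widely used markers were listed at 0 in every brain sample, among them Gfap of astrocytes, P2ry12 of microglia and B2m of the class I complex, along with all 21 protocadherin beta genes. Such an entry may be a failed assignment of reads, so nothing is said of these genes.

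No gene passed the test between the ages. Of 15546 genes, 0 were called at an adjusted p under 0.05 (0%) in limma, 0 in edgeR and 0 in DESeq2, and the lowest limma adjusted p was 0.965. At an unadjusted p under 0.05 limma listed 605 genes (3.89%), 335 higher at 14 months (2.15%) and 270 lower (1.74%), and the other tools listed 665 and 673. No gene separated the 9 samples of 14 months from the 15 samples of 5 and 8 months without overlap. The sign was positive for 7578 genes (48.7%), with a median log2 difference of -0.003. The same held for each age alone: 0 genes passed for 14 against 5 months (608 at unadjusted p under 0.05, 3.91%), 0 for 14 against 8 months (430, 2.77%) and 0 for 8 against 5 months (365, 2.35%).

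The depth and the number of samples set how large a difference could have gone unseen. The 95% confidence interval of the difference lay wholly within 1.5-fold in either direction for 12980 genes (83.5%) and within 2-fold for 15115 (97.2%). Among the 10863 genes whose mean reached 50 in at least 1 of the groups, those shares were 98.9% and 99.9%. The intervals are for 1 gene at a time and are not adjusted for the number of genes.

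Since none passed, the genes named next are those of smallest unadjusted p whose mean reached 50 in at least 1 of the groups, 12 in each direction. Their p-values are unadjusted and the limma adjusted p of each was 0.965, so each stands as a description of where the data lean.

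The smallest p belonged to Hist1h1c, which encodes the linker histone H1.2 (chromosome 13, 23738808 to 23740367, plus strand, GRCm38). Its normalized read count ran from 67.0 to 111 with a median of 94.2 at 14 months, and from 57.7 to 83.5 with a median of 72.6 at 5 and 8 months. Of the 9 samples of 14 months 8 lay above the younger median, but the ranges overlapped. The log2 difference was 0.34 (SE 0.09, 95% interval 0.16 to 0.52), with an unadjusted limma p of 0.000496 and an exact permutation p of 0.000692 (2-sided, over all 1307504 divisions of the 24 samples). Hist1h1c averaged 81.0 ± 3.71 (SD, n = 5) at 26 months, the oldest age, and 84.5 ± 5.89 (SD, n = 7) at 3 months, the youngest. The log2 difference between those was -0.06. Reads of the near-identical histone genes may be shared between copies.

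A pair of endothelial junction genes lay at opposite ends of the list. Cldn5, the tight-junction protein that seals brain capillaries (chromosome 16, 18776847 to 18778262, plus strand), had 142 to 271.1 with a median of 182 at 14 months and 115 to 195 with a median of 156 at 5 and 8 months, a log2 difference of 0.32 (SE 0.09, unadjusted limma p = 0.00119, exact permutation p = 0.00620). Esam, an adhesion molecule of the same junctions (chromosome 9, 37528078 to 37538319, plus strand), had 32.7 to 58.7 with a median of 51.1 at 14 months and 42.6 to 90.5 with a median of 65.0 at 5 and 8 months. All 9 samples of 14 months were below the younger median for Esam, and 7 of 9 were above it for Cldn5. The log2 difference of Esam was -0.39 (SE 0.12, unadjusted limma p = 0.00135, exact permutation p = 0.00324). Replicate 1 of 14 months, the brain library with the fewest reads, had both the highest Cldn5 and the lowest Esam of its age. Without it the log2 differences were 0.25 for Cldn5 and -0.32 for Esam. Cldn5 stood at 0.23 without replicates 1 and 6 of 14 months. Of 20 markers of endothelial cells and pericytes tested, 1, Cldn5 itself, had an unadjusted p under 0.05 (5%, against 3.89% of all genes). Of the 20, 13 were positive and the median log2 difference was 0.04. Pecam1, a general endothelial adhesion molecule, averaged 166 at 14 months and 168 at 5 and 8 months, and the VEGF receptor Flt1 713 at 14 months and 730 at 5 and 8 months. Neither Cldn5 nor Esam passed at 26 against 3 months (limma adjusted p = 0.917 and 0.619).

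Among the other genes of positive difference, Ass1, which makes argininosuccinate in the arginine cycle, averaged 108 ± 18.2 at 14 months and 83.8 ± 15.03 at 5 and 8 months, and all 9 samples were above the younger median. H2afz, a histone variant found at gene starts, averaged 168 ± 27.3 at 14 months and 136 ± 24.5 at 5 and 8 months, again with 9 of 9 above. Hapln2, a link protein of the nodes of Ranvier made by oligodendrocytes, averaged 86.9 ± 15.7 at 14 months and 68.3 ± 17.3 at 5 and 8 months. Its samples of 5 months were low (38.9 to 64.0) and those of 8 months were not (56.9 to 112), so that the log2 difference was 0.56 against 5 months and 0.14 against 8 months. Aven, Atxn7l1, Zfp637, Arfgap3, Cebpz and Rpl19 had log2 differences of 0.34, 0.25, 0.35, 0.22, 0.25 and 0.34; without replicates 1 and 6 of 14 months Arfgap3 was at 0.14 and Cebpz at 0.11. All 12 genes of this direction were positive against 5 months alone and against 8 months alone, 4 of them had all 9 samples above the younger median, and 2, C4b and Hapln2, were among the genes called at 26 against 3 months.

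In the other direction stood Hnrnpa1, an RNA-binding splicing factor, with 1210 to 1466 and a median of 1344 at 14 months and 1193 to 2313 with a median of 1657 at 5 and 8 months. All 9 samples of 14 months were below the younger median, and the younger samples were far more spread. The log2 difference was -0.26 (SE 0.08, unadjusted limma p = 0.00179, exact permutation p = 0.00620). Rprml, a reprimo-like gene, averaged 88.4 ± 20.1 at 14 months and 123 ± 37.2 at 5 and 8 months, a log2 difference of -0.45 (SE 0.14). Egln1, the oxygen-sensing prolyl hydroxylase that marks HIF for breakdown, averaged 774 ± 76.1 at 14 months and 894 ± 123 at 5 and 8 months, and Kcns2, a modifier subunit of voltage-gated potassium channels, 255 ± 27.9 at 14 months and 296 ± 36.1 at 5 and 8 months. The remaining genes, Cnksr3, Snx11, Tbc1d20, Rap1gap2, Ccdc157, Ythdc2 and Naa16, had log2 differences between -0.34 and -0.16. Replicate 6 of 14 months was the lowest of its age for 6 of the 12 genes, and without replicates 1 and 6 Tbc1d20 was at -0.13 and Rap1gap2 at -0.10. All 12 were negative against each younger age alone, and 0 of the 12 were called at 26 or at 20 against 3 months.

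**Figure D1:**
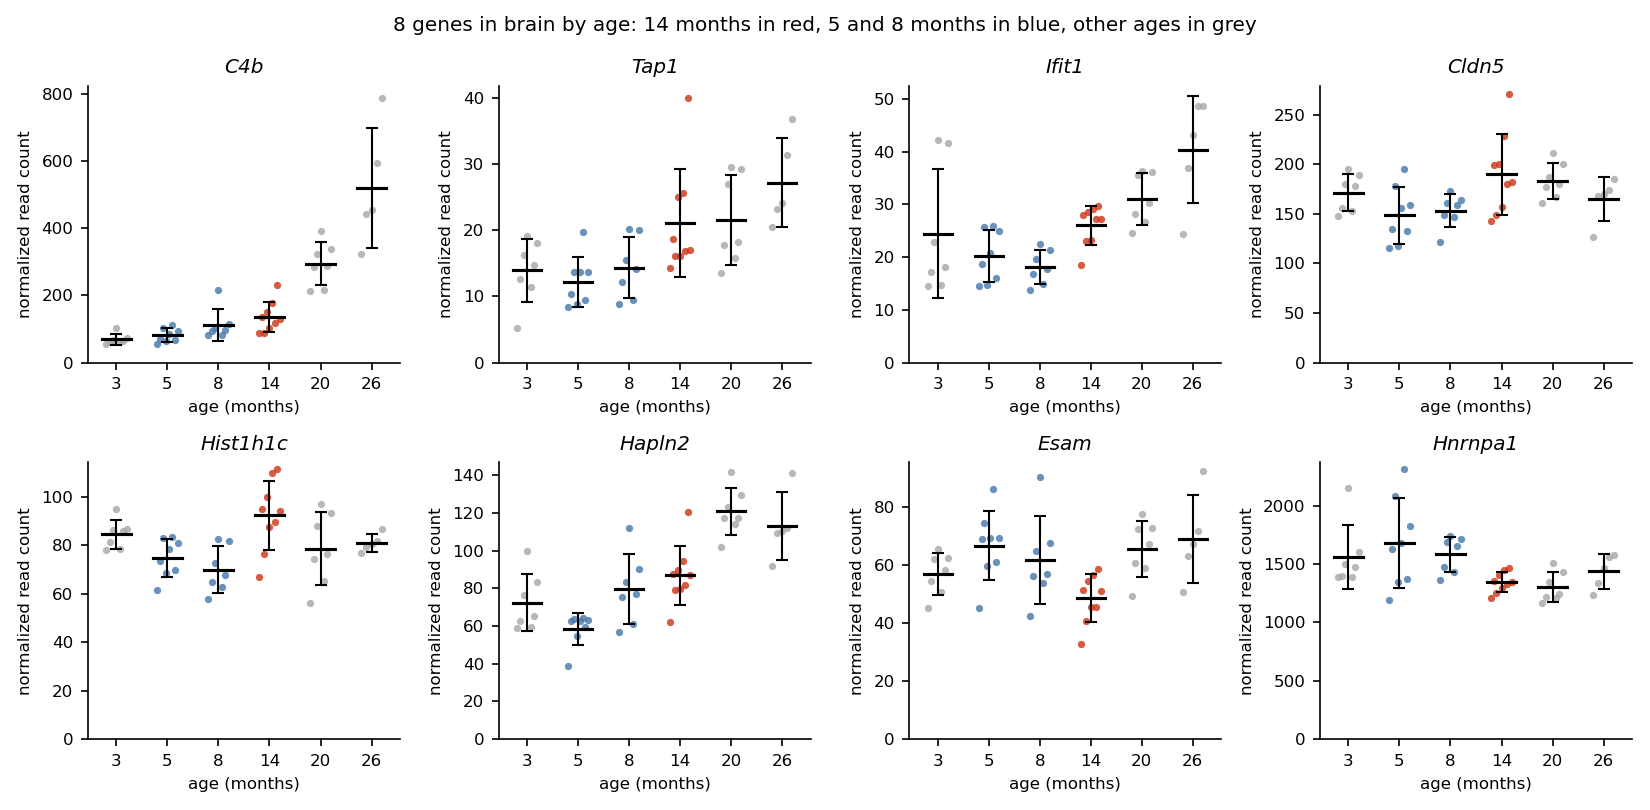
Normalized read count of 8 genes in every brain sample (y axes, linear, from 0) by age in months (x axes). Red points are 14 months, blue points 5 and 8 months and grey points the other ages; the bar is the mean and the whiskers 1 SD. C4b ran from 86.9 to 231 at 14 months and from 55.7 to 216 at 5 and 8 months, and the ranges of the red and blue points overlap in every panel.

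Complement genes were described first among the groups because C4b was the largest of the 12 positive differences. C4b (chromosome 17, 34728380 to 34743882, minus strand) had 86.9 to 231 with a median of 130.3 at 14 months and 55.7 to 216 with a median of 93.1 at 5 and 8 months. The high end of the younger range is a single 8-month sample, and the next highest of that age had 114. The log2 difference was 0.50 (SE 0.16, 95% interval 0.18 to 0.83), with an unadjusted limma p of 0.00315 and an exact permutation p of 0.0158. Without replicates 1 and 6 of 14 months it was 0.32. It was 0.69 (SE 0.18) against 5 months and 0.29 (SE 0.19) against 8 months, and 8 months stood 0.41 (SE 0.19) above 5 months, none passing in limma. Reads of C4b and its near-copy C4a may be exchanged.

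Of the 18 complement genes listed, 16 were tested and 12 were positive (against 48.7% of all genes). The median log2 difference of the list was 0.13, where all genes had -0.003. The median was 0.08 without replicate 3 of 5 months. In limma 0 passed, and 4 had an unadjusted p under 0.05 as higher (25%, against 2.15% of all genes) and 0 as lower. Besides C4b they included C1qb, a chain of the initiating C1q complex, with 125 ± 19.6 at 14 months and 102 ± 18.2 at 5 and 8 months (log2 0.29), and Itgam, the alpha chain of complement receptor 3 on microglia, with 137 ± 24.4 at 14 months and 118 ± 19.8 at 5 and 8 months (0.21). The mean log2 level of the list was 5.29 to 5.66 at 14 months and 5.13 to 5.49 at 5 and 8 months, and 6 of 9 samples lay above the younger median. The younger ages were not alike in this level. At 5 months it ran from 5.13 to 5.42, while at 8 months it was 5.36 or more in every sample except replicate 6 (5.22).

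Interferon-stimulated genes leaned the same way. Of 30 listed, 25 were tested and 22 were positive (against 48.7% of all genes), with a median log2 difference of 0.16. None passed in limma, while 6 had an unadjusted p under 0.05 as higher (24%, against 2.15% of all genes) and 0 as lower. Ifit1, which binds foreign RNA caps, had 18.4 to 29.7 with a median of 27.3 at 14 months. At 5 and 8 months it had 13.8 to 25.9 with a median of 18.6. The log2 difference was 0.44 (SE 0.16, unadjusted limma p = 0.00829, exact permutation p = 0.00137). Ifit1 was named as the list member of smallest p, so both p-values are selected. Of the 9 samples of 14 months 8 were above the younger median. Mx1, a GTPase that blocks viral replication, averaged 6.92 ± 2.81 at 14 months and 4.09 ± 2.57 at 5 and 8 months, counts so low that the log2 difference of 0.78 has an SE of 0.31. Xaf1 averaged 49.0 ± 13.4 at 14 months and 38.6 ± 8.24 at 5 and 8 months (log2 0.32), and Ifit2 107 ± 16.0 at 14 months and 93.3 ± 14.8 at 5 and 8 months (0.20). Stat2, a factor of the complex that drives the programme, was picked out after its values were seen and averaged 195 at 14 months and 199 at 5 and 8 months (log2 -0.03). The mean log2 level of the list was 4.72 to 5.07 at 14 months and 4.34 to 4.98 at 5 and 8 months, and all 9 samples of 14 months lay above the younger median, 3 of them above every younger sample.

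The response element that marks such genes is shown for Ifit1, the interferon-stimulated gene of smallest p, as the 250 bases before its start (chr19:34640639-34640888, plus strand, RefSeq on GRCm38.p6). Capitals mark 2 matches on the minus strand to GAAANNGAAA, which begin 104 and 85 bases before the start.
Ifit1: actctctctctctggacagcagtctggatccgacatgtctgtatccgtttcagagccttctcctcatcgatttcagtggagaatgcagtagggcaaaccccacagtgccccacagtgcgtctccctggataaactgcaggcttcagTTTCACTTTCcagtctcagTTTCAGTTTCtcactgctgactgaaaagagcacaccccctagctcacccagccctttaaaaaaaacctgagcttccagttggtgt
Searched on both strands from 250 bases before to 50 after the start, GAAANNGAAA was present for 15 of 21 interferon-stimulated genes with an entry, 3 of 14 class I genes and 1 of 11 complement genes, and for 3.99% of all 27025 genes with an entry. A match is a description of the letters and not a site in use in these brains.

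Antigen presentation genes were likewise positive without passing. Of 16 class I genes 10 were tested, 9 were positive (against 48.7% of all genes) and the median log2 difference was 0.20. At an unadjusted p under 0.05, 1 gene was higher (10%, against 2.15% of all genes). That gene was Tap1, a subunit of the peptide pump that loads class I molecules (chromosome 17, 34187553 to 34197225, plus strand), with 14.2 to 40.0 and a median of 17.0 at 14 months, and 8.35 to 20.2 and a median of 13.6 at 5 and 8 months. All 9 samples of 14 months were above the younger median, and 3 stood clear of the younger range. The log2 difference was 0.62 (SE 0.19, unadjusted limma p = 0.00226, exact permutation p = 0.00201), 0.72 against 5 months and 0.51 against 8 months. H2-D1, a classical class I heavy chain, averaged 202 ± 44.3 at 14 months and 172 ± 29.0 at 5 and 8 months (log2 0.22), and Nlrc5, the class I transactivator, 13.3 ± 2.46 at 14 months and 10.8 ± 5.11 at 5 and 8 months (0.37). All 6 tested class II genes were positive with a median of 0.34, led by Cd74, the invariant chain, with 15.5 ± 7.04 at 14 months and 10.6 ± 5.22 at 5 and 8 months (log2 0.54, exact permutation p = 0.0594). Tap1 and Cd74 were named as the members of smallest p in their lists, so their p-values are selected. Reads of the H2 genes, a family of close copies, may be exchanged between members.

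Markers of immune cells that could enter with blood were set beside these groups. The B and plasma cell list had 3 members tested, 2 of them positive with an unadjusted p under 0.05 (2.15% of all genes), and a median log2 difference of 0.23. Ighm, the heavy chain of IgM, averaged 74.5 ± 25.4 at 14 months and 57.6 ± 14.5 at 5 and 8 months (log2 0.33), Xbp1, a stress factor that many cell types express, averaged 353 ± 52.4 at 14 months and 303 ± 64.4 at 5 and 8 months (0.23), and Ms4a1 was listed at 0. The 10 genes of that list summed to 359 to 553 at 14 months and 246 to 537 at 5 and 8 months. The 12 T cell genes summed to 95.2 to 204 at 14 months and 119 to 212 at 5 and 8 months, with 0 of 4 tested members positive. The other members of that list were too low to be tested. Of these, Cd3e (0.827 at 14 months and 0.398 at 5 and 8 months), Cd3g, Cd8a, Trac (7.42 and 6.28) and Nkg7 averaged higher at 14 months. Cd3d, Cd8b1 and Ccl5 averaged lower, so the T cell markers had no shared sign. Erythroid genes summed to 17.4 to 45.3 at 14 months and 13.6 to 79.5 at 5 and 8 months, and Hbb-bs, a globin of red cells, averaged 13.8 ± 3.94 at 14 months and 13.2 ± 5.04 at 5 and 8 months. The part of blood-borne cells in the presentation and interferon genes was not tested.

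Glial state genes followed in smaller steps. Of 26 activated microglia genes 20 were tested, 17 were positive (against 48.7% of all genes) and the median log2 difference was 0.09. At an unadjusted p under 0.05, 0 were lower and 3 were higher (15%, against 2.15% of all genes). These were Spp1, a secreted phosphoprotein, with 104 ± 27.4 at 14 months and 82.7 ± 17.2 at 5 and 8 months (log2 0.32), the lysosomal protease Ctsd with 242 ± 39.9 at 14 months and 200 ± 49.9 at 5 and 8 months (0.31), and Apoe, the lipid carrier made by astrocytes and activated microglia, with 5612 ± 1568 at 14 months and 4682 ± 806 at 5 and 8 months (0.24). Apoe was highest in replicates 1 and 6 of 14 months, with 8241 and 8344, while the other 7 samples of that age ran from 4026.5 to 5496. Without replicates 1 and 6 the log2 difference of Apoe was 0.06, that of Spp1 0.19, that of Itgam 0.11, that of Vim 0.15, that of Cox6a1 0.14 and that of Ighm 0.21. With 1 library left out, the activated list's median ran from 0.06 (without replicate 8 of 8 months) to 0.17 (without replicate 3 of 14 months). Without replicate 1 of 8 months it was 0.14. Homeostatic microglia genes had 11 tested members, 8 positive, 0 at that p and a median of 0.03, which ran from 0.01 to 0.11 with 1 library left out. Of 16 reactive astrocyte genes tested 13 were positive with a median of 0.11 (0.17 without replicate 2 of 14 months and 0.05 without replicates 1 and 6); Vim, the intermediate filament, averaged 182 ± 32.0 at 14 months and 155 ± 23.6 at 5 and 8 months (log2 0.23), and the protease inhibitor Serpina3n 68.5 ± 17.2 at 14 months and 53.1 ± 13.03 at 5 and 8 months (0.36). Astrocyte identity genes stood at a median of 0.00 over 19 members, and lysosome genes at 0.10 over 16.

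**Figure D2:**
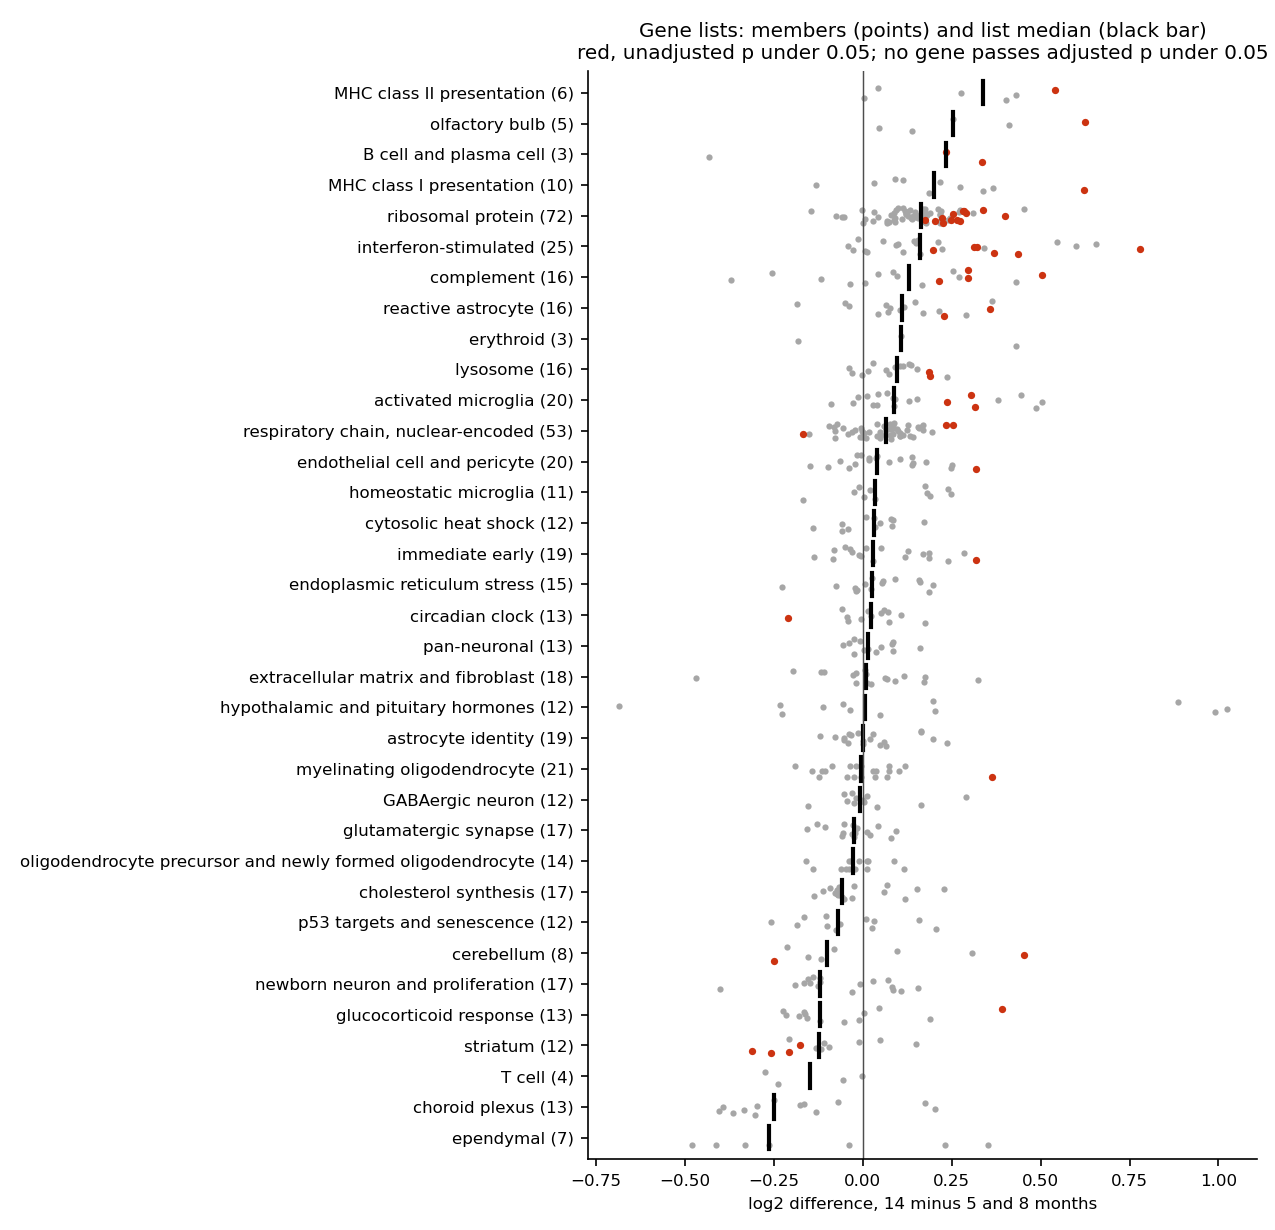
Log2 difference of each tested gene (points), 14 months minus 5 and 8 months, for 35 gene lists ordered by their median (black bars); the number tested is in parentheses. Red points have an unadjusted limma p under 0.05, 0 genes passed after adjustment, and the medians of the class II, class I, ribosomal protein, interferon-stimulated and complement lists lie between 0.13 and 0.34, while that of the T cell list is -0.15.

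The genes of late life were then read in the middle-aged brains. At 26 against 3 months, groups that share no sample with 14 or with 5 and 8 months, limma called 103 genes (0.663%), 89 higher (0.572%) and 14 lower (0.0901%). Of the 89 genes higher at 26 months, 73 (82.0%) had a positive difference at 14 months, against 48.7% of all genes, and their median log2 difference was 0.13, against -0.003 for all genes. In the later contrast their median was 0.99. At an unadjusted p under 0.05, 15 of the 89 (16.9%, against 2.15% of all genes) were higher at 14 months and 0 lower. At 20 against 3 months 27 genes were called (0.174%), and the 25 higher ones (0.161%) had 24 positive at 14 months and a median of 0.18. Most of these 25 genes, C4b, Hapln2, Vwf and Vim among them, also belong to the 89, so they are not a separate set. All contrasts share 1 estimate of the spread per gene, and the 2 later contrasts share the 3-month samples.

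Within the 12 largest increases of 26 against 3 months (mean of 50 or more at either age), 11 had a positive difference at 14 months and 2, C4b and Serpina3n, had an unadjusted p under 0.05. The leukocyte phosphatase Ptprc averaged 64.1 ± 7.69 at 14 months and 58.4 ± 10.7 at 5 and 8 months (log2 0.15), against a log2 difference of 1.22 at 26 months over 3 months. Lgals3bp, a secreted galectin ligand, averaged 67.9 ± 11.8 at 14 months and 58.2 ± 24.2 at 5 and 8 months (0.30, and 1.13 at 26 months), and Vwf, the clotting factor of endothelial cells, 90.4 ± 12.4 at 14 months and 78.8 ± 25.8 at 5 and 8 months (0.25, and 1.08). For others the middle-aged difference was close to 0: Gpnmb, a glycoprotein of lipid-laden microglia, averaged 38.04 ± 6.83 at 14 months and 35.8 ± 6.49 at 5 and 8 months (0.09, and 1.45), Lag3, an immune receptor found on microglia, 35.8 ± 14.0 at 14 months and 33.9 ± 6.53 at 5 and 8 months (-0.03, and 1.44), and Parp14 40.9 ± 6.97 at 14 months and 41.8 ± 12.1 at 5 and 8 months (0.01, and 1.11). The signs of Gpnmb, Lag3, Parp14 and Itgb2 (0.04) depended on which samples or tool were used. A2m and Lyz2, with log2 differences of 0.21 and 0.13, had wide errors (SE 0.21 and 0.23) and stood at 0.03 and 0.06 without replicates 1 and 6 of 14 months.

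Of the 14 genes called lower at 26 months, 8 had a positive difference at 14 months, the median was 0.11, and 2 (14.3%, against 1.74% of all genes) had an unadjusted p under 0.05 as lower and 0 as higher. The difference between the sets called higher and lower was not tested. The 2 were Car8, a carbonic-anhydrase-related protein of Purkinje cells, with 83.0 ± 15.1 at 14 months and 98.1 ± 13.7 at 5 and 8 months (log2 -0.25), and Golga7b with 415 ± 27.4 at 14 months and 468 ± 70.0 at 5 and 8 months (-0.16). The immediate early genes Fos and Arc, called lower at 26 months, averaged 680 ± 219 at 14 months and 569 ± 150 at 5 and 8 months for Fos and 497 ± 210 at 14 months and 447 ± 149 at 5 and 8 months for Arc (log2 0.24 and 0.12). Read the other way, the 335 genes of unadjusted p under 0.05 and positive sign at 14 months had a positive difference at 26 over 3 months in 166 cases (49.6%), against 49.0% of all genes, and of the 270 with a negative sign 103 (38.1%) were positive there.

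**Figure D3:**
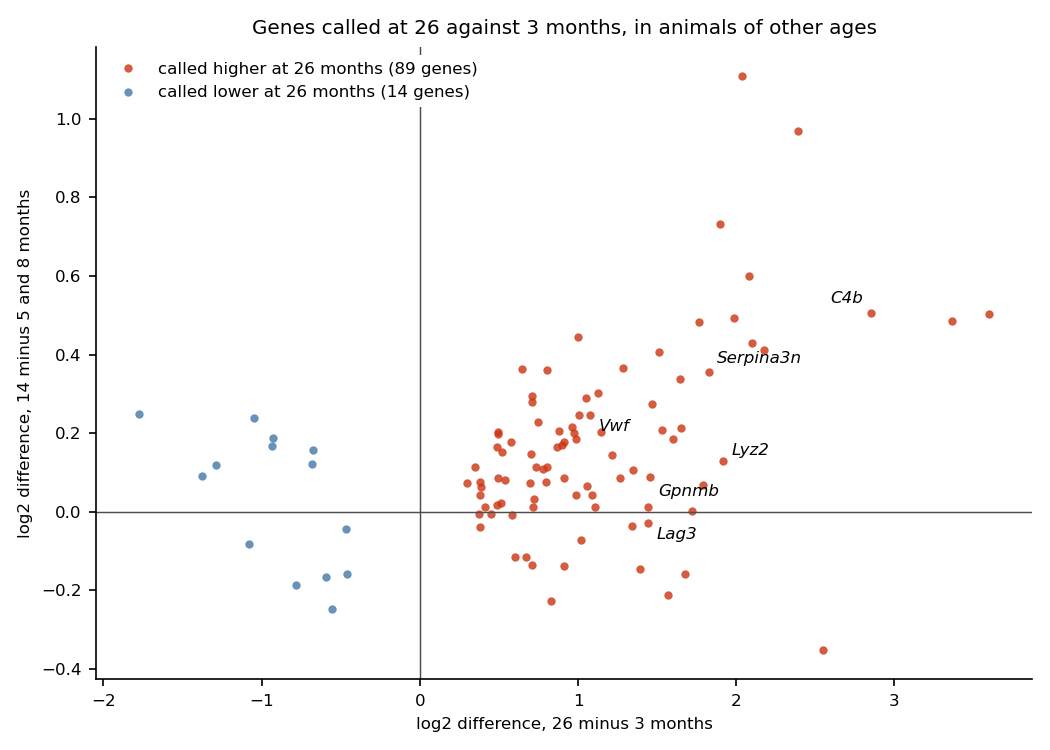
The 103 genes called at 26 against 3 months: log2 difference of 26 minus 3 months (x axis) and of 14 minus 5 and 8 months (y axis), 1 point a gene. Of the 89 red points, called higher at 26 months, 73 lie above 0, while of the 14 blue points, called lower, 8 do; the later contrast chose the genes, so the x axis is a description.

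Ribosomal protein genes were the largest block with a shared sign. Of 72 tested 67 were positive (against 48.7% of all genes) and the median log2 difference was 0.16. In limma 0 passed, and 13 had an unadjusted p under 0.05 as higher (18.1%, against 2.15% of all genes) and 0 as lower. Rpl19, of the large subunit, averaged 540 ± 89.9 at 14 months and 433 ± 94.5 at 5 and 8 months, with all 9 samples above the younger median; Rpl10 averaged 265 ± 36.4 at 14 months and 219 ± 36.2 at 5 and 8 months, and Rps14 of the small subunit 476 ± 77.1 at 14 months and 401 ± 64.8 at 5 and 8 months. The mean log2 level of the list was highest in replicates 6 and 1 of 14 months (8.42 and 8.32), stood between 7.76 and 8.12 in the other 7 samples of 14 months, and ranged from 7.60 to 8.08 at 5 and 8 months. Replicate 1 has the fewest reads of all brain libraries, 4072076. Without these 2 samples the median of the list was 0.05 (0.11 without replicate 6 alone), and the genes with an unadjusted p under 0.05 numbered 344 in place of 605. At 26 against 3 months the list had a median of -0.20. Ribosomal protein genes have many processed copies, so reads may be shared. Nuclear-encoded respiratory chain genes, 53 tested, had a median of 0.07, and -0.02 without the same samples (0.02 without replicate 1 alone and 0.03 without replicate 6 alone); Cox6a1, a subunit of cytochrome c oxidase, averaged 530 ± 96.3 at 14 months and 441 ± 52.6 at 5 and 8 months (log2 0.25).

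**Figure D4:**
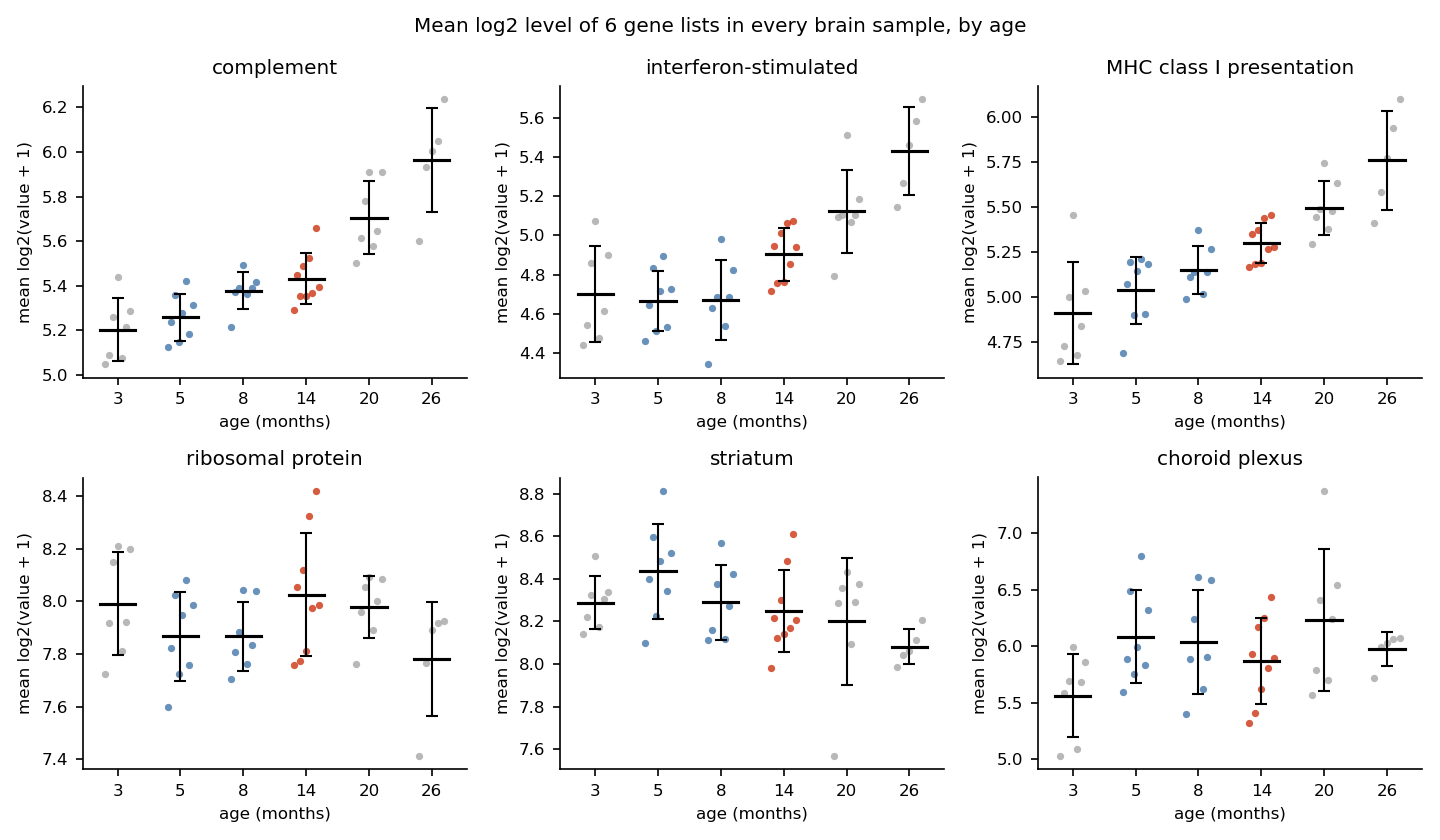
Mean log2(value + 1) of the tested members of 6 gene lists in each brain sample (points; y axes do not start at 0) by age in months, with the mean (bar) and 1 SD (whiskers). Red points are 14 months and blue points 5 and 8 months; the interferon-stimulated means run from 4.72 to 5.07 at 14 months and from 4.34 to 4.98 at 5 and 8 months, and 2 samples of 14 months stand above all others in the ribosomal protein panel.

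Neuronal and myelin genes lay close to 0. The 13 pan-neuronal genes tested had a median log2 difference of 0.02 and 0 at an unadjusted p under 0.05, the 17 glutamatergic synapse genes -0.02, the 12 GABAergic genes -0.01 and the 21 genes of myelinating oligodendrocytes -0.00. Mbp, the myelin basic protein, averaged 12532 ± 2025 at 14 months and 12516 ± 1390 at 5 and 8 months, a log2 difference of -0.00 with a 95% interval of -0.15 to 0.14. Dcx, a microtubule protein of young neurons, averaged 684 ± 140 at 14 months and 695 ± 117 at 5 and 8 months. Newborn neuron and proliferation genes had a median of -0.12 over 17 members with 0 at that p. The signs of Mbp and Dcx depended on the samples or tool used.

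Markers of particular brain regions were spread widely between samples. Of 12 striatal genes 10 were negative at 14 months, with a median of -0.12 and 4 at an unadjusted p under 0.05 as lower (1.74% of all genes). Among these, Adora2a, the adenosine receptor of indirect-pathway neurons, averaged 345 ± 108 at 14 months and 442 ± 196 at 5 and 8 months (log2 -0.31), and the dopamine receptor Drd1 284 ± 60.9 at 14 months and 343 ± 103 at 5 and 8 months (-0.26). Adora2a stood at -0.51 against 5 months and -0.09 against 8 months, and Drd1 at -0.33 against 5 months and -0.18 against 8 months. Choroid plexus genes had 2 of 13 positive and a median of -0.25 with 0 at that p (-0.14 without replicate 2 of 14 months), and Ttr, the thyroxine carrier secreted there, ranged from 850 to 3258 at 14 months and from 901 to 5282 at 5 and 8 months (log2 -0.30, SE 0.24; -0.56 without replicates 1 and 6 and -0.17 without replicate 3 of 14 months). The olfactory bulb list was positive in 5 of 5 with a median of 0.25, and Th, which makes dopamine, averaged 67.4 ± 37.2 at 14 months and 41.3 ± 18.9 at 5 and 8 months. Cerebellar genes stood at -0.10 over 8 members. The share of each region in the dissected tissue is not given in the sources used here, and its part in these values was not tested.

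Pituitary hormone transcripts were set apart by 1 brain. Growth hormone, Gh, had 3200 in replicate 9 of 14 months, 128 in the next sample of that age and a median of 17.0, against a median of 13.8 and a highest value of 261 at 5 and 8 months. Prolactin, Prl, and Pomc were highest in the same sample, at 747 and 465. No other result named here rests on these genes, but the sample itself is part of every list. Replicate 9 also had the highest mean log2 level at 14 months of the interferon-stimulated genes (5.07) and of the class II genes (4.56). With 1 library left out, the median log2 difference was at least 0.15 for the interferon-stimulated list and 0.24 for the class II list. The part of pituitary tissue in other values was not tested.

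Spleens of the same mice were tested with the same groups and model as a scale for the size of the brain result. No spleen libraries were averaged, so 26 libraries of 14, 5 and 8 months entered, where brain had 24 samples. In spleen, 616 of 16243 genes were called for 14 against 5 and 8 months (3.79%), 530 higher (3.26%) and 86 lower (0.529%), with 206 to 1218 when 1 library was left out (206 without replicate 7 and 1218 without replicate 8 of 14 months). The tables were normalized separately and no difference between tissues was tested. Of the 24 brain genes named above, 21 were tested in spleen, and 2 passed there: Cldn5 with a log2 difference of 1.303 (limma adjusted p = 0.0418) and Esam with 0.73 (0.0483), where the brain values were 0.32 and -0.39. C4b stood at 0.77 in spleen (limma adjusted p = 0.0918).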

How the data were processed

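RNA libraries from flash-frozen brain and spleen were made with a TruSeq kit, per the labels' protocols. The deposited values are a normalized signal, read counts per gene divided by the authors' size factor; HISAT2 2.1.0, R 3.5.1 and DESeq2 on GRCm38 are named in the submitters' processing notes, and the read counter is not given in the sources used here. Whole reads were recovered from the steps of the values (100% within 0.01 of a read). The main test was limma 3.58.1 with a mean-variance trend on log2(value + 1), which understates the change of low genes, over 43 brain samples of 5 age groups (3, 5 with 8, 14, 20 and 26 months), with Benjamini-Hochberg adjustment over 15546 genes. A second limma fit gave each age its own mean. The recovered reads went through edgeR 4.0.16 and DESeq2 1.42.0, in R 4.3.3. The model was tested on simulated data. Samples are separate animals by title, and so are the libraries of each averaged pair, where the values leave this in doubt. The p-values reflect only the spread between these samples. Codes beginning ET in the titles are unexplained and were not used. Positions are from GENCODE M21. Named genes were the 12 of smallest unadjusted p in each direction with a mean of at least 50 (no gene passed), predicted, immunoglobulin, T-cell receptor and sex-linked genes and pseudogenes aside, up to 4 members of smallest p per list and 8 fixed genes; other members are named where a sentence needs them. The 12 late genes were the largest increases. Members and lists were chosen with earlier results of these data known. Alternatives covered scaling, pseudocount, filter, reference age, depth and single libraries.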

Additional observations from a re-analysis of the deposited data

Results flagged for a closer look

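Single samples that stood far from the others of their age by Dixon's test numbered 11 among 180 groups checked (6.11%), where chance gives about 1 in 20. At 14 months, Egln1 was lowest in replicate 6 at 590 (next 759), as were Rap1gap2 at 1129 (next 1588) and Ythdc2 at 570 (next 691), and this replicate was the lowest of its age for 6 of the 12 genes named as lower. Aven was lowest in replicate 9 of 14 months at 60.2 (next 74.0), and Mbp was highest in replicate 1 of 14 months at 17319 (next 13298). At 5 months, replicate 4 was lowest for Rpl19 at 216 (next 377) and Hapln2 at 38.9 (next 54.4) and highest for Tbc1d20 at 532 (next 429), and replicate 2 was lowest for the mean log2 level of endothelial cell and pericyte genes at 6.398 (next 6.87). At 8 months, C4b was highest in replicate 1 at 216 (next 114) and Cebpz lowest in replicate 3 at 295 (next 342).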

How the results depend on the processing

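The count of genes passing was 0 under all 41 alternatives. Genes at an unadjusted p under 0.05 ranged from 429 (without replicate 1 of 14 months) to 845 (without replicate 5 of 14 months) with 1 library left out, were 455 without replicate 6 of 14 months, and 344 without replicates 1 and 6 together, an alternative added after seeing the data. edgeR listed 665, of which 453 were higher. Of the 89 genes higher at 26 months, 67 to 74 were positive with 1 library left out. The number was 46 with a minimum value of 50, where fewer genes were tested. Their median was 0.11 to 0.17 with 1 library left out and 0.08 to 0.18 under the other alternatives. The set called by edgeR held 100 genes, 80 of them positive, with a median of 0.11. Of these 100, 87 were also in the limma set. Signs turned for 6 single genes and for 5 of the 16 list medians computed under the alternatives, and the cause was not tested. The myelinating oligodendrocyte median ran from -0.07 against 8 months to 0.07 against 5 months, the immediate early median was -0.02 against 8 months and -0.04 without replicate 3 of 14 months, the endothelial median was -0.003 against 5 months, the respiratory chain median was -0.02 without replicates 1 and 6, and the ependymal median was 0.35 with a minimum value of 50, where fewer genes were tested. Against 5 months alone Mbp was 0.0919, Gpnmb -0.0224 and Lag3 0.0429; against 8 months alone Dcx was 0.0253 and Parp14 -0.170. With every library separate Mbp was 0.00914, with both libraries of each pair left out Dcx was 0.0123, and without libraries under 5000000 reads Lag3 was 0.0681 and Itgb2 -0.0217. In edgeR Mbp was 0.00669, Lag3 0.0963 and Parp14 -0.00499; in DESeq2 they were 0.00183, 0.0930 and -0.00441. Without replicates 1 and 6 of 14 months Dcx was 0.0647, Gpnmb -0.00971, Lag3 0.222 and Itgb2 -0.216. With 1 library left out Mbp ran from -0.0648 to 0.0302, Dcx from -0.0955 to 0.0141, Lag3 from -0.118 to 0.170, Parp14 from -0.0478 to 0.0704 and Itgb2 from -0.0717 to 0.184. No paired analysis was possible because, by title, no animal was measured at more than 1 age. Depth limits the genes under a mean of 50: the interval was within 1.5-fold for 83.5% of all genes and 98.9% of those above it.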
